A study of Mus musculus with 65 samples.

Results

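Weak meiotic break hotspots that coincide with CTCF binding made up 617 of the 13808 DMC1 hotspots mapped in wild-type mouse testis. They were chosen from the 13314 hotspots on chromosomes 1 to 19 by 3 criteria: a deposited wild-type DMC1 value below 129, which is the median of the whole list, at least 1 bp shared with a wild-type CTCF peak, and no overlap with any of the 5 MEI4 peak lists. Of the 6670 autosomal hotspots below that value, 658 had a CTCF peak, and 41 of those were left out because a MEI4 peak lay there in some genotype. The choice used the wild-type DMC1 values, the CTCF list and the MEI4 lists, so these are described below without a test.

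The series mapped proteins of meiotic recombination by chromatin immunoprecipitation and sequencing in testes of male mouse pups whose germ cells had been brought into meiosis together. Per the labels, an oral blocker of retinoic acid was given from 1.5 days of age for 7 to 10 days, retinoic acid was then injected, and testes were taken 8 days later, when 80 to 95% of the cells were leptotene or zygotene spermatocytes. All groups share this treatment and are labelled C57BL/6JCrl whole testis. Compared here are the wild type and mice lacking PRDM9 (B6;129P2-Prdm9tm1Ymat/J, called Prdm9KO), SPO11 (Spo11tm1Mjn, Spo11KO), MEI4 (Mei4tm1Bdm, Mei4KO), IHO1 (Iho1tm1.2Atot, Iho1KO) or HORMAD1 (Hormad1tm1.2Atot, Hormad1KO). HORMAD1 peaks were listed in 5 genotypes, IHO1 peaks in 5 and SYCP3 peaks in 6, which gives 16 lists of axis-associated proteins, each without data from the knockout of its own gene. Each protein had a single list in each genotype, which leaves every difference between genotypes without a replicate check. The SYCP3 lists of Prdm9KO, Spo11KO and Iho1KO come from groups with 1 sample, and the other groups used here have 2. Whole testis was used, so a peak of another cell type in the testis cannot be told apart from one of spermatocytes.

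In mouse meiosis, most DNA double-strand breaks form where the zinc fingers of PRDM9 bind and the protein methylates nearby histones. SPO11 cuts the DNA with the help of MEI4 and IHO1, and the recombinase DMC1 then loads on the resected ends, so DMC1 signal marks hotspots in use. CTCF is a zinc-finger protein that holds the bases of chromatin loops together with cohesin. HORMAD1 and SYCP3 are components of the meiotic chromosome axis, the protein core to which the loops are anchored, and IHO1 binds HORMAD1 there.

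Promoter windows show what kind of sequence lay at those of these sites that were at promoters. Sequence outside promoter windows was not available, so the values from these windows do not describe the whole set. RefSeq promoters (GRCm38.p6, from 250 bases before to 50 after a gene start) of 202 protein-coding genes, in 228 windows, overlapped both a hotspot of this set and its CTCF peak. Printed first are the 4 whose hotspot carried peaks of the largest number of the 16 lists, all read on the strand of the gene. They are the promoters of Tafa2, which encodes a secreted chemokine-like protein, Mmp23, a matrix metalloproteinase, Limk2, a kinase of actin regulators, and E2f3, a transcription factor of the cell cycle.
Tafa2, chr10:123263826-123264125, strand +: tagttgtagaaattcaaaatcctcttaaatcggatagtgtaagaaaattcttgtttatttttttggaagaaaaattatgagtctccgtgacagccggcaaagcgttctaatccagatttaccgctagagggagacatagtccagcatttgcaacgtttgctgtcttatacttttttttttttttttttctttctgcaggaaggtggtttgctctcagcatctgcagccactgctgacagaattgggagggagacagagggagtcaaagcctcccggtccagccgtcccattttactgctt
Mmp23, chr4:155653241-155653540, strand -: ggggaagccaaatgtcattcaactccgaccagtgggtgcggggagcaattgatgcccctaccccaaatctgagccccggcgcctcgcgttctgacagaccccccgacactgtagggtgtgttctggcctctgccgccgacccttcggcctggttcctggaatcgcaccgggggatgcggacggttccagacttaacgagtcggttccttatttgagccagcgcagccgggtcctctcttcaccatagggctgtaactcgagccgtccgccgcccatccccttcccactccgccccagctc
Limk2, chr11:3409189-3409488, strand -: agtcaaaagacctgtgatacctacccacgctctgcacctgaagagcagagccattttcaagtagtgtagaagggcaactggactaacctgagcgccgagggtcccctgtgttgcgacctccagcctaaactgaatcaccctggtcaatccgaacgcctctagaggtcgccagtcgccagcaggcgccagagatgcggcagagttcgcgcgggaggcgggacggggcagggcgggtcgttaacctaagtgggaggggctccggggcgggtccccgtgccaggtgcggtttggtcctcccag
E2f3, chr13:29984342-29984641, strand -: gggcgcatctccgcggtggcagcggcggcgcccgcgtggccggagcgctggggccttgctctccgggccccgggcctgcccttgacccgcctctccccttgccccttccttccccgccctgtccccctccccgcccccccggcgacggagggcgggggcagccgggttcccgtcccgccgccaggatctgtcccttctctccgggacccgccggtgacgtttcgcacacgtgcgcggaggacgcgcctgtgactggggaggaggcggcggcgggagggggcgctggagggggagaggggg
The CTCF core searched for on either strand was CCA, 2 bases of any kind, AG, 2 bases of any kind and GGC. Capitals would mark it, and none of these 4 windows held those letters. Each CTCF peak was longer than its window, and the rest of the peak was not searched. The Tafa2 hotspot had peaks of 9 lists, the Mmp23 hotspot of 8, the Limk2 hotspot of 6 and the E2f3 hotspot of 5.

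The core was found in 7 of the 228 windows (3.07%, Wilson 95% interval 1.50 to 6.20), beside 481 of all 20085 protein-coding promoter windows (2.39%), 4.84% of the 2870 windows at a CTCF peak and no hotspot, and 3.20% of the 874 windows at a weak hotspot without CTCF. The 7 stretches, each the core in capitals with 24 bases to both sides and read on the strand of the gene, show how the matches vary.
Atp6v1d, chr12:78861790-78861849, strand -: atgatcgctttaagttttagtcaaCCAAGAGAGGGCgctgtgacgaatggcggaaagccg
Rab32, chr10:10558256-10558315, strand -: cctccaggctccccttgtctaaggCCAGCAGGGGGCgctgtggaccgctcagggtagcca
Zfp638, chr6:83914247-83914306, strand +: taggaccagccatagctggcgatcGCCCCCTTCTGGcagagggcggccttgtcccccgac
Zc3h15, chr2:83644334-83644393, strand +: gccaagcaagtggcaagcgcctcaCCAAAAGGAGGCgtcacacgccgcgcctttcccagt
Ep300, chr15:81586172-81586231, strand +: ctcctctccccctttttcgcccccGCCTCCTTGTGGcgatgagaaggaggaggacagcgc
Psat1, chr19:15924663-15924722, strand -: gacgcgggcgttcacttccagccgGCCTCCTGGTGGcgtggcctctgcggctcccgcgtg
Pole2, chr12:69228172-69228231, strand -: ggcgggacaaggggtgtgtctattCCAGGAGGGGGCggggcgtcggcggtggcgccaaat
The core reads forward in Atp6v1d, Rab32, Zc3h15 and Pole2 and on the opposite strand in the other 3. The 3 windows of highest CTCF score were those of Atp6v1d (7.80), a subunit of the vacuolar proton pump, Rab32 (5.82), a small GTPase, and Zfp638 (5.76), a zinc-finger protein. The Rab32 hotspot had a HORMAD1 peak in Mei4KO and a SYCP3 peak in Iho1KO, those of Zfp638, Zc3h15 and Ep300 had a SYCP3 peak in Iho1KO alone, and the other 3 had a peak of no list. The median GC content was 62.7% in the 228 windows, 59.7% in windows at CTCF peaks and no hotspot, and 64.0% in windows at weak hotspots without CTCF, against 57.0% in all windows.

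The hotspots were weak by choice, and the scores of their CTCF peaks lay within the range of CTCF peaks elsewhere. The DMC1 value, whose unit the authors did not name, ran from 1 to 128 with a median of 52.5, and it had a median of 53.75 in the 5732 weak hotspots with neither a CTCF nor a MEI4 peak, which serve as the comparison group below. Positions here and below are on mm10, as in the deposited lists. At the limit itself, the values just inside were 128 and 128, at chr9:108197880-108199537 and chr10:116330046-116332080, and the values just outside were 131.5 and 132.5, at chr19:57159563-57161574 and chr2:18391301-18393607. The hotspots lay on all 19 autosomes, with 19 to 47 on each. Their width had a median of 2084 bp, beside 1908 bp in the comparison group.

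The deposited CTCF score of the 621 CTCF peaks at these hotspots had a median of 2.09 (quartiles 1.48 and 3.05, highest 7.80). The 30630 autosomal CTCF peaks at no hotspot had a median of 1.91 (quartiles 1.26 and 2.90), and the 140 at stronger hotspots without MEI4 had 1.98. The quartile ranges overlapped. Of the hotspots, 612 had 1 CTCF peak and 5 had 2. The CTCF peak centre lay a median of 625 bp from the hotspot centre (quartiles 268 and 1129), and the intervals shared a median of 1370 bp. CTCF score and DMC1 value showed no clear relation across the 617 hotspots (Spearman rho -0.03, a description across sites). In 4 equal classes of DMC1 value over all autosomal hotspots, from weakest to strongest, 10.2, 9.56, 7.33 and 7.36% had a CTCF peak.

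A peak of at least 1 of the 16 lists was found at 166 of the 617 hotspots (26.9%, Wilson 95% interval 23.6 to 30.5), a share near the 26.6% of all autosomal hotspots and above the 11.4% of the comparison group (difference 15.5 percentage points, Newcombe 95% interval 12.0 to 19.2). The other 451 had none, 101 had a peak of 1 list, 33 of 2, and the highest number was 9, at 1 hotspot. SYCP3 was found in some genotype at 112 hotspots (18.2%, background over all hotspots 15.1%, comparison group 9.87%). HORMAD1 was found at 73 (11.8%, background 9.17%, comparison group 2.25%) and IHO1 at 15 (2.43%, background 18.8%, comparison group 0.645%). Both HORMAD1 and SYCP3 were found at 19. No axis-protein peak at these hotspots also covered a further hotspot, weak or strong.

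HORMAD1 was found more often at weak hotspots with a CTCF peak than at weak hotspots without one, in all 5 genotypes. In the wild type, 11 of 617 had a HORMAD1 peak (1.78%, Wilson 95% interval 0.998 to 3.16), beside 4.66% of all autosomal hotspots and 0.297% of the comparison group (difference 1.49 percentage points, Newcombe 95% interval 0.682 to 2.87). Where the shared stretch had to cover 50% or more of the shorter site, this wild-type difference was 0.482 points (-0.0430 to 1.74). In Prdm9KO the count was 16 (2.59%, background over all hotspots 0.391%), 2.37 points above the comparison group (1.36 to 3.95). In Spo11KO it was 18 (2.92%, background 5.3%; difference 2.55 points, 1.47 to 4.20). Of these genotypes Mei4KO had the highest count, 56 hotspots (9.08%, 7.06 to 11.6, background 2.04%), against 1.67% of the comparison group, a difference of 7.40 points (5.35 to 9.95). Iho1KO had 23 (3.73%, background 1.43%; difference 3.26 points, 2.01 to 5.07). Their share was thus above that of all hotspots in Prdm9KO, Mei4KO and Iho1KO, and below it in the wild type and Spo11KO. The background over all hotspots includes the stronger ones and those with a MEI4 peak, which the choice left out. A share below it is therefore not a trait of hotspots at CTCF peaks. The comparison group leaves out the same hotspots.

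**Figure D1:**
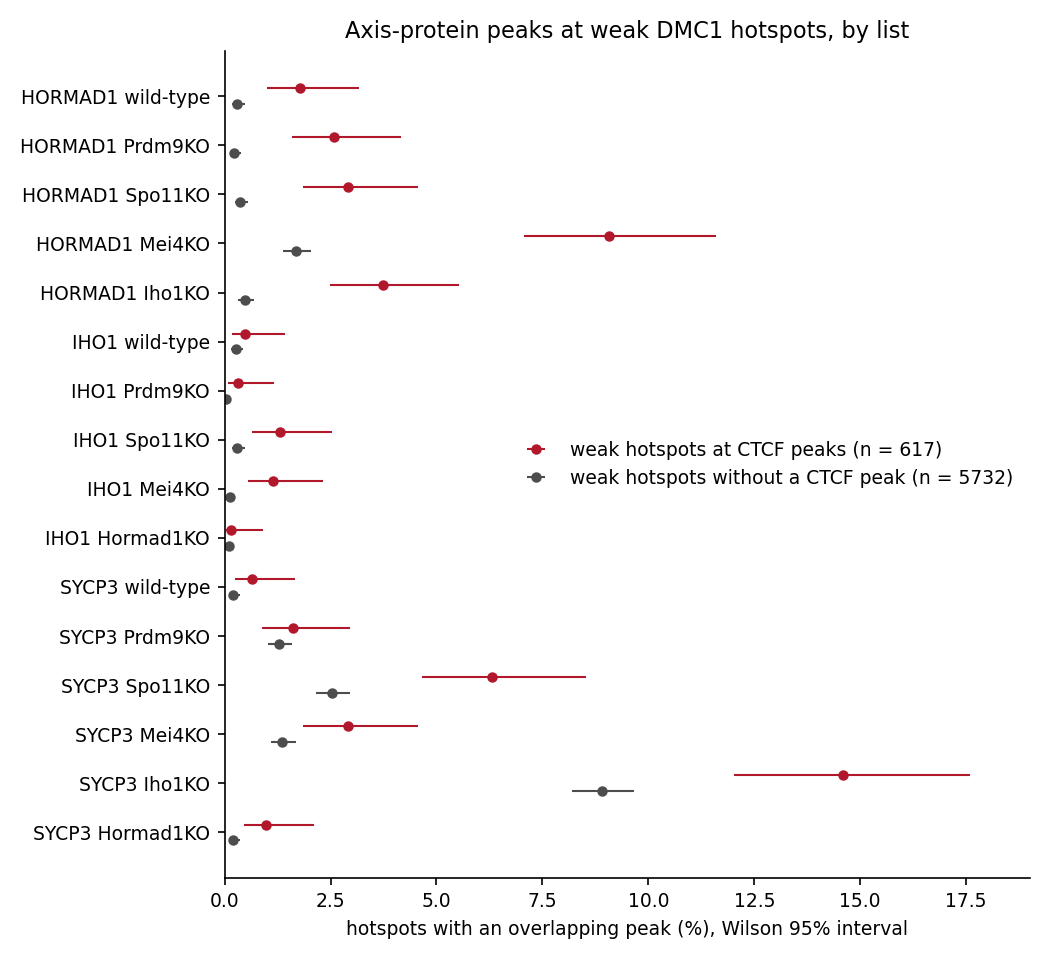
Share of weak hotspots with an overlapping peak of each of the 16 axis-protein lists (x axis, percent), for the 617 at CTCF peaks (red) and the 5732 without a CTCF peak (grey). Points are shares and bars Wilson 95% intervals, which cover counting error only. The highest shares at CTCF peaks are those of SYCP3 in Iho1KO (14.6%) and HORMAD1 in Mei4KO (9.08%).

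HORMAD1 was also found at CTCF peaks away from hotspots. Of the 621 CTCF peaks at the weak hotspots, 12 overlapped a wild-type HORMAD1 peak (1.93%), and of the 30630 CTCF peaks at no hotspot 592 did (1.93%; difference -0.000379 points, -0.839 to 1.42), beside 2.07% of all autosomal CTCF peaks. The difference was 0.631 points in Prdm9KO (-0.367 to 2.21, background over all CTCF peaks 1.98%) and -1.41 in Spo11KO (-2.56 to 0.311, background 4.82%). It was -0.932 in Mei4KO (9.66% against 10.6%; -3.04 to 1.67, background 10.6%) and -1.59 in Iho1KO (-3.01 to 0.389, background 6.3%), and all of these intervals include 0. With the CTCF peaks away from hotspots weighted to the same mix of CTCF scores, the intervals for Spo11KO (-1.94 points, -3.10 to -0.225) and Iho1KO (-2.30 points, -3.73 to -0.321) lay below 0. Only with this weighting, added after the data were examined, was HORMAD1 less frequent at the hotspots' CTCF peaks in these genotypes. CTCF peaks at no hotspot were not screened for MEI4 peaks, as the hotspots were. The part of this screen in the differences was not tested. For IHO1 and SYCP3 in the wild type the shares were 0.966% each at the hotspots' CTCF peaks, against 1.36% and 1.24% at CTCF peaks away from hotspots (backgrounds 1.51% and 1.49%), and both intervals include 0 (-0.935 to 0.737 and -0.810 to 0.861). SYCP3 was more frequent at the hotspots' CTCF peaks than at those away from hotspots in 4 knockouts. The difference was 11.2 points in Iho1KO (15.0% against 3.75%; 8.62 to 14.2, background 4.05%), 5.47 in Spo11KO (3.72 to 7.74, background 1.76%), 2.29 in Mei4KO (1.13 to 4.03, background 1.17%) and 1.13 in Prdm9KO (0.389 to 2.46, background 0.535%). In Hormad1KO it was 0.0737 points (-0.573 to 1.31, background 1.29%). The CTCF peaks at these hotspots were wider than those at no hotspot, with medians of 1971 and 1567 bp. The part of width in these differences was not tested.

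HORMAD1 peaks were more frequent at the hotspots with higher CTCF scores. With the hotspots placed in the 4 quartiles of the score of all autosomal CTCF peaks, HORMAD1 in Mei4KO was found at 0 of 104, 7 of 161, 10 of 177 and 39 of 175 hotspots, from the lowest to the highest quartile (0, 4.35, 5.65 and 22.3%). The difference between the outer quartiles was 22.3 points (15.7 to 29.0). In the wild type the counts were 0, 0, 3 and 8, and the outer quartiles differed by 4.57 points (0.365 to 8.76). In the other 3 genotypes the highest quartile held 11 of 16 hotspots with HORMAD1 in Prdm9KO, 13 of 18 in Spo11KO and 16 of 23 in Iho1KO. The median CTCF score was 3.50 at the 56 hotspots with HORMAD1 in Mei4KO and 2.00 at the other 561. Their median DMC1 values were 47 and 52.5. Wild-type HORMAD1 also rose with CTCF score away from hotspots. It was at 1.93% of all CTCF peaks at no hotspot and at 3.61% of those in the upper 50% of scores. At the hotspots' CTCF peaks these shares were 1.93% and 3.42%. Knockout shares away from hotspots were not set out by score.

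SYCP3 in Iho1KO showed no such order, and the difference between the proteins was not tested here. SYCP3 peaks in Iho1KO were at 13.5, 16.1, 15.3 and 13.1% of the hotspots in the same 4 quartiles, and the outer quartiles differed by -0.319 points (-9.25 to 7.52). The other SYCP3 lists were not alike in this. Wild-type SYCP3 was found at 0, 0, 0 and 4 hotspots, from the lowest to the highest quartile, and SYCP3 in Hormad1KO at 0, 1, 0 and 5. The counts were 6, 9, 9 and 15 in Spo11KO and 3, 5, 3 and 7 in Mei4KO. In Prdm9KO they were 1, 4, 2 and 3.

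**Figure D2:**
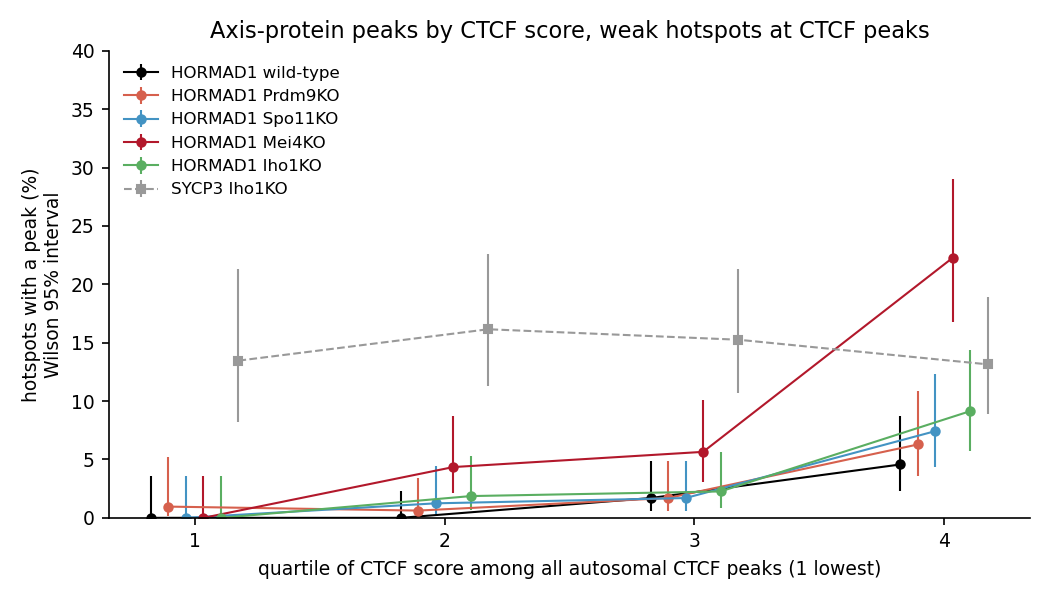
Share of the 617 hotspots with an axis-protein peak (y axis, percent) by quartile of CTCF score (x axis, 1 lowest), for HORMAD1 in 5 genotypes (circles) and SYCP3 in Iho1KO (grey squares), with Wilson 95% intervals. HORMAD1 in Mei4KO is at 0% in the lowest and 22.3% in the highest quartile, and SYCP3 in Iho1KO is between 13.1 and 16.1% in every quartile. The other SYCP3 lists are not drawn.

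SYCP3 peaks were few in the wild type and more frequent in 3 of the knockouts. In the wild type 4 of 617 hotspots had a SYCP3 peak (0.648%, background over all hotspots 7.56%), 0.439 points above the comparison group (0.0133 to 1.45). This call rests on 4 hotspots, and its interval includes 0 where the shared stretch had to cover 50% or more of the shorter site (0.181 points), in a 1 kb window at the hotspot centre (0.360 points) and away from gene ends (0.387 points). Iho1KO had the highest count of all 16 lists, 90 hotspots (14.6%, 12.0 to 17.6, background 6.56%), against 8.90% of the comparison group (difference 5.69 points, 3.01 to 8.78). With the comparison group weighted to the same hotspot widths and DMC1 values, the difference was 1.28 points (-1.50 to 4.44), and its interval includes 0. Spo11KO had 39 (6.32%, background 5.95%; difference 3.79 points, 2.07 to 6.03) and Mei4KO 18 (2.92%, background 1.11%; difference 1.56 points, 0.441 to 3.23, and 0.915 points, -0.271 to 2.61, when weighted). Hormad1KO had 6 (0.972%, background 1.46%; difference 0.763 points, 0.214 to 1.90). Prdm9KO had 10 (1.62%, background 1.1%), and its difference of 0.347 points (-0.459 to 1.71) has an interval that includes 0.

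IHO1 was rare at these hotspots in every genotype. Peaks were found at 3 in the wild type (background 4.08%), 2 in Prdm9KO (background 0.15%), 8 in Spo11KO (1.30%, background 14.6%), 7 in Mei4KO (1.13%, background 0.293%) and 1 in Hormad1KO (background 12.7%). The share was above that of the comparison group in Spo11KO (1.00 points, 0.338 to 2.25), Mei4KO (1.01 points, 0.414 to 2.20) and Prdm9KO (0.289 points, 0.0366 to 1.14, resting on 2 hotspots in each group). The intervals included 0 in the wild type (0.225 points) and in Hormad1KO (0.0574 points). Of the 16 lists, 13 were thus found more often at weak hotspots with CTCF than at those without, and the intervals of the other 3 include 0. The count was 11 with the stricter overlap and in the 1 kb window, 10 with the comparison group weighted, 9 away from gene ends and 2 at gene ends, where 1 was lower.

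Many of these hotspots lay at ends of genes. An end here is either boundary of a gene, its start included, and starts were not split from the other boundary. An end of a protein-coding gene lay within 1 kb of 243 of the 617 hotspots (39.4%, 35.6 to 43.3), against 13.3% of all autosomal hotspots and 17.3% of the comparison group (difference 22.0 points, 18.1 to 26.1). Such an end lay within 1 kb of 39.8% of the hotspots' CTCF peaks and of 14.4% of CTCF peaks at no hotspot (difference 25.4 points, 21.6 to 29.3). A further 192 hotspots (31.1%) were inside a gene away from its ends, and 182 (29.5%) were between genes. Some promoter windows lay at starts other than these gene ends. The Zfp638 hotspot, with SYCP3 in Iho1KO, held such a window and was counted as away from gene ends. Further cases of this kind were not counted. The 243 hotspots touched the ends of 288 genes, which was 1.39% of the 20665 in the table, and these included 0 of 33 meiosis genes, 0 of 13 genes of cohesin and CTCF and 0 of 39 Hox genes.

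SYCP3 in Iho1KO was at 84 of the 243 hotspots at gene ends (34.6%, 28.9 to 40.7) and at 6 of the other 374 (1.60%, 0.737 to 3.46), a difference of 33.0 points (27.0 to 39.2). In Spo11KO the shares were 15.2% and 0.535% (difference 14.7 points, 10.5 to 19.8), in Mei4KO 7.00% and 0.267% (6.73 points, 3.87 to 10.7) and in Prdm9KO 3.70% and 0.267% (3.44 points, 1.30 to 6.63). In the wild type (0.288 points, -1.23 to 2.45) and Hormad1KO (1.11 points, -0.607 to 3.65) the intervals include 0. For HORMAD1 all 5 intervals of this difference include 0. In Mei4KO HORMAD1 was at 7.00% of the hotspots at gene ends and 10.4% of the others (-3.43 points, -7.79 to 1.33), and in the wild type at 1.23% and 2.14% (-0.904 points, -3.09 to 1.65).

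**Figure D3:**
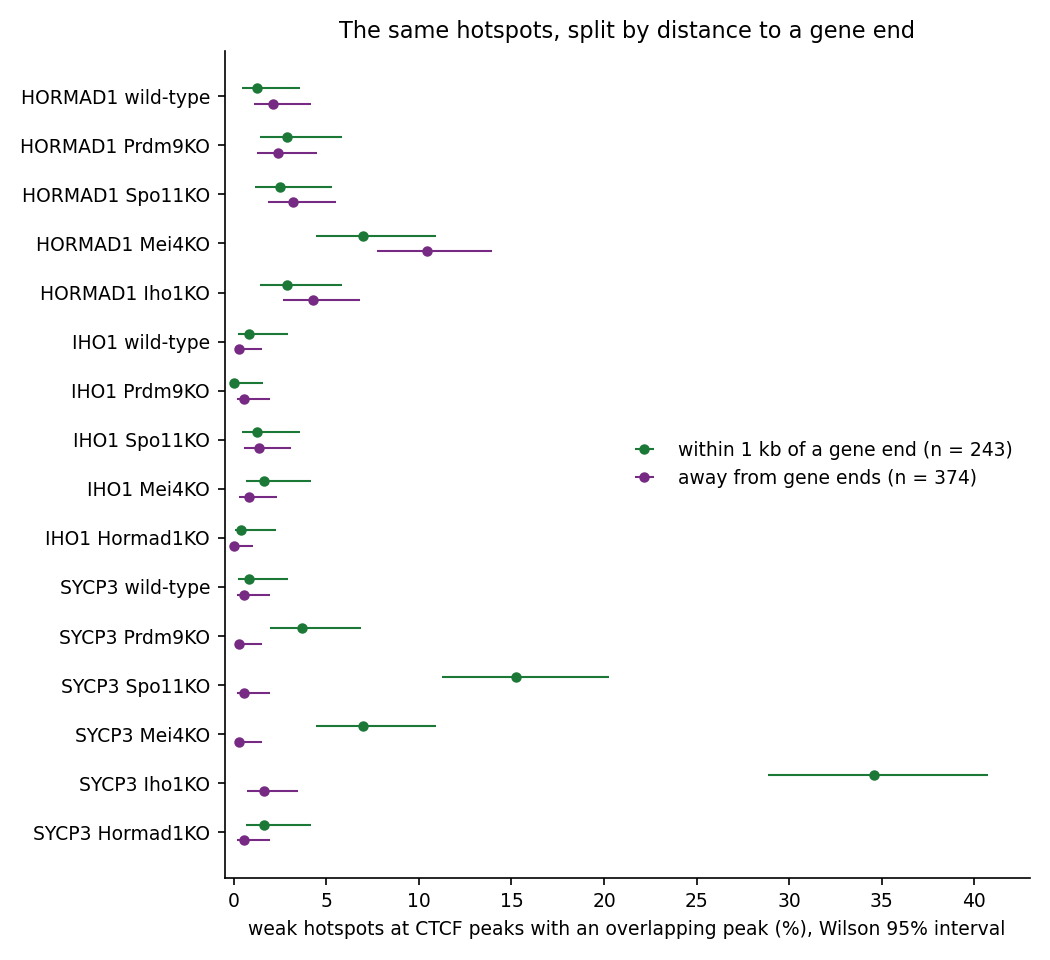
Share of the weak hotspots at CTCF peaks with a peak of each list (x axis, percent), for the 243 within 1 kb of a gene end (green) and the 374 away from gene ends (purple), with Wilson 95% intervals. The green and purple intervals separate for SYCP3 in Prdm9KO, Spo11KO, Mei4KO and Iho1KO and overlap for the 5 HORMAD1 lists.

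Once gene ends were set apart, the interval of the SYCP3 difference between weak hotspots with and without CTCF lay above 0 only in Hormad1KO. At gene ends, SYCP3 in Iho1KO was at 34.6% of hotspots with CTCF and at 44.3% of the 994 weak hotspots without CTCF (-9.70 points, -16.2 to -2.80). Away from gene ends the shares were 1.60% and 1.48% (0.127 points, -0.822 to 2.00). In Hormad1KO the difference away from gene ends was 0.471 points (0.0645 to 1.87), on 2 hotspots. HORMAD1 differed away from gene ends in all 5 genotypes, by 1.99 points in the wild type (0.928 to 4.02). At gene ends the interval excluded 0 in Spo11KO (1.56 points, 0.00603 to 4.41) and included it in the other 4 genotypes. For HORMAD1 in Mei4KO the difference between weak hotspots with and without CTCF was 9.31 points away from gene ends (10.4% against 1.12%; 6.58 to 12.8) and 2.67 points at gene ends (7.00% against 4.33%; -0.292 to 6.74). Among CTCF peaks at gene ends, SYCP3 in Iho1KO was at 34.4% of the 247 at these hotspots and at 12.95% of the 4416 at no hotspot (difference 21.5 points, 15.7 to 27.7). Away from gene ends those shares were 2.14% and 2.20% (-0.0659 points, -1.13 to 1.97). For SYCP3 in Spo11KO the shares at gene ends were 15.8% and 5.89% (difference 9.90 points, 5.82 to 15.0). Away from gene ends they were 1.07% and 0.710% (0.360 points, -0.302 to 2.01). SYCP3 in Mei4KO and Prdm9KO was not split in this way.

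The lists with the most peaks of each protein, which are from different genotypes, differed in where their peaks were centred. All 56 HORMAD1 peaks of Mei4KO at these hotspots also overlapped the hotspot's CTCF peak, and 38 of them (67.9%, 54.8 to 78.6) were centred nearer to the CTCF peak centre than to the hotspot centre, at median distances of 404 and 650.5 bp. Their median distance to a gene end was 7351 bp. Of the 90 SYCP3 peaks of Iho1KO, 88 overlapped the CTCF peak, but 30 (33.3%, 24.5 to 43.6) were centred nearer to it, at median distances of 340.5 bp from the CTCF peak centre, 233 bp from the hotspot centre and 310.5 bp from a gene end. The difference between the 2 lists in the share nearer to CTCF was 34.5 points (17.9 to 48.5). Overlap of axis peaks with the CTCF peak was near complete in every list. The choice of hotspots at CTCF peaks favours such overlap, so it is not read as a result. Within a genotype the CTCF peak centre was the nearer one for 9 of 11 HORMAD1 and 4 of 4 SYCP3 peaks in the wild type, for 38 of 56 and 9 of 18 in Mei4KO, and for 14 of 23 and 30 of 90 in Iho1KO. A difference between the proteins was not tested within a genotype. The SYCP3 peaks of Iho1KO were narrower than the HORMAD1 peaks of Mei4KO, with medians of 1089.5 and 2708 bp at these hotspots, and the part of width in this difference was not tested.

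**Figure D4:**
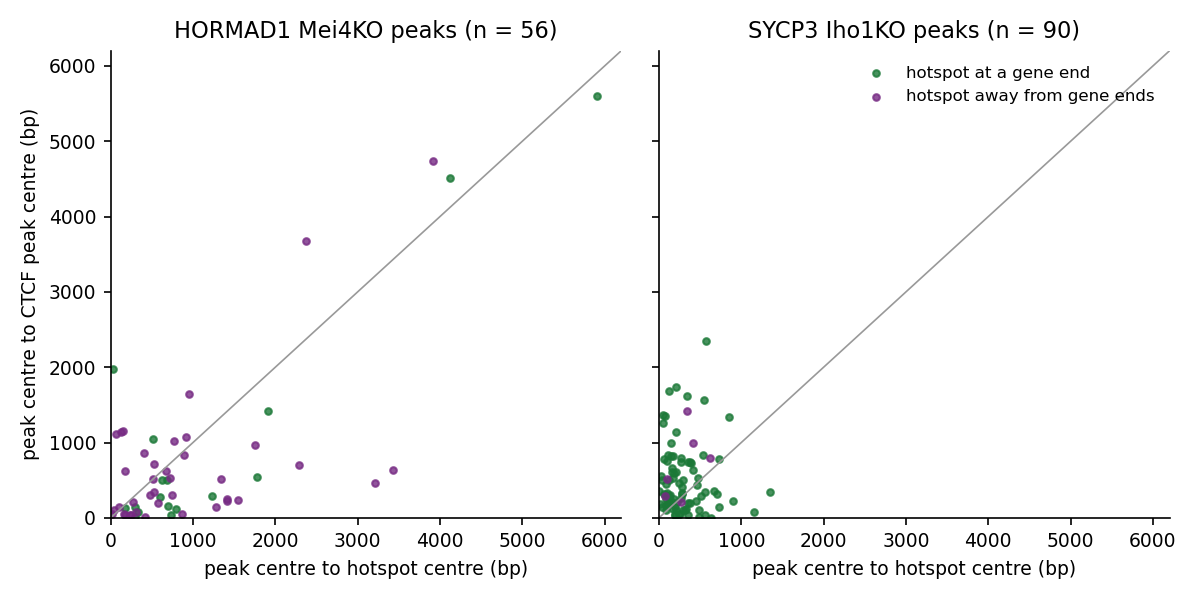
Distance from the centre of each axis-protein peak to the hotspot centre (x axis, bp) and to the nearest CTCF peak centre of that hotspot (y axis, bp), for HORMAD1 in Mei4KO (left, 56 peaks) and SYCP3 in Iho1KO (right, 90 peaks). Green marks hotspots at gene ends and purple the others. The grey line marks equal distances, and 38 HORMAD1 but 30 SYCP3 peaks lie below it.

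The knockouts were also set against the wild type over the same 617 hotspots. These comparisons share the wild-type list of their protein, and the lists differ in length. HORMAD1 in Mei4KO was found at 49 hotspots that lacked it in the wild type, while 4 had it in the wild type alone and 7 in both (difference 7.29 points, paired Newcombe interval 5.13 to 9.76). The autosomal lists held 5193 HORMAD1 peaks in Mei4KO and 1636 in the wild type, and the comparison group held 96 and 17 hotspots with such a peak. In Iho1KO HORMAD1 was at 17 hotspots not in the wild-type list and missing at 5 (1.94 points, 0.427 to 3.66), with 3098 peaks in that list. The changes in Prdm9KO (0.810 points, -0.446 to 2.20) and Spo11KO (1.13 points, -0.255 to 2.67) have intervals that include 0. SYCP3 was gained at 88 hotspots and lost at 2 in Iho1KO (13.9 points, 11.2 to 16.9), gained at 37 and lost at 2 in Spo11KO (5.67 points, 3.82 to 7.87), and gained at 16 and lost at 2 in Mei4KO (2.27 points, 0.931 to 3.90). The SYCP3 lists held 5309, 2330 and 1109 autosomal peaks in these genotypes and 1847 in the wild type, so Mei4KO had the larger share from the shorter list. The differences of SYCP3 in Prdm9KO and Hormad1KO and of IHO1 in all 4 knockouts have intervals that include 0, and none of the 13 comparisons gave an interval below 0. In the comparison group SYCP3 was at 510 hotspots in Iho1KO, 145 in Spo11KO and 78 in Mei4KO, against 12 in the wild type. The rise was thus not confined to hotspots at CTCF peaks. Over all autosomal hotspots the counts were 873, 792 and 148, against 1006 in the wild type. The part of list length in the differences over the 617 hotspots was not tested. Away from gene ends the differences of SYCP3 were 1.07 points in Iho1KO (-0.579 to 2.96), 0 in Spo11KO (-1.45 to 1.45) and -0.267 in Mei4KO (-1.68 to 1.03), and that of HORMAD1 in Iho1KO was 2.14 points (-0.0627 to 4.61). All 4 intervals include 0.

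Of the 56 hotspots with HORMAD1 in Mei4KO, 9 (16.1%) were among the 90 with SYCP3 in Iho1KO, of which they made up 10.0%. SYCP3 in Iho1KO was at 14.6% of all 617, so the share among the 56 was near that of the whole set. Of the 23 hotspots with HORMAD1 in Iho1KO, 15 (65.2%) were among the 56 of Mei4KO, of which they made up 26.8%. Of the 39 with SYCP3 in Spo11KO, 24 (61.5%) were among the 90 of Iho1KO (26.7% of those), and of the 18 of Mei4KO 14 (77.8%; 15.6%). HORMAD1 was found in all 5 genotypes at 3 hotspots and in exactly 1 genotype at 46. Overlaps between genotypes were not counted at other hotspots, so whether they are particular to this set is unknown.

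The 6 hotspots named for their number of lists all had both HORMAD1 and SYCP3 in some genotype. A further hotspot had 7 lists as well and was left out by its lower CTCF score. At chr10:123263652-123266685, which spans the Tafa2 start, the DMC1 value was 27.5 and the CTCF score 3.73, and peaks of 9 lists were found: HORMAD1 in the wild type and Iho1KO, IHO1 in Spo11KO and Mei4KO, and SYCP3 in every genotype except Prdm9KO. At chr12:98178254-98180833, with no gene, 8 lists had peaks, among them HORMAD1 in all 5 genotypes, and SYCP3 was found in the wild type alone (CTCF score 3.47). At chr4:155652062-155654127, at Mmp23 and Mib2, which encodes a ubiquitin ligase, 8 lists had peaks and none of them was wild-type HORMAD1 or SYCP3 (CTCF score 1.71). At chr14:55012536-55014651, within 1 kb of an end of Ngdn, HORMAD1 was again found in all 5 genotypes, and the CTCF score of 6.92 was the highest of the 6. At chr11:55517988-55519609, inside the glycine receptor gene Glra1, 7 lists had peaks and no wild-type list was among them (CTCF score 5.32). At chr10:64081859-64083806, inside Ctnna3, which encodes a catenin, and Lrrtm3, all 3 wild-type lists had peaks, together with HORMAD1 in Prdm9KO and Mei4KO, IHO1 in Prdm9KO and SYCP3 in Hormad1KO.

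Some hotspots with high CTCF scores had no axis peak. The 3 hotspots of highest score without a peak of any list had scores of 7.80, 7.45 and 6.68. They lay at chr12:78860670-78863519, at ends of Atp6v1d and Eif2s1, a subunit of a translation initiation factor, at chr6:38533853-38535868, at Fmc1, and at chr7:6726427-6728850, inside Peg3, an imprinted zinc-finger gene. Their DMC1 values were 41.5, 84 and 23.

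The stronger hotspots with CTCF and without MEI4, 140 in number, had wild-type axis shares that could not be separated from these. HORMAD1 was at 2.14% of them (difference -0.360 points, -4.40 to 1.61), IHO1 at 1.43% (-0.942 points, -4.59 to 0.452) and SYCP3 at none (0.648 points, -2.05 to 1.65). Another 348 stronger hotspots with CTCF had a MEI4 peak in some genotype and are not in that group.

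Without HORMAD1, few of these weak hotspots were mapped again by DMC1. The Hormad1KO list had a hotspot at 18 of the 617 (2.92%, 1.85 to 4.56), against 34.2% of all autosomal hotspots and 4.94% of the comparison group, a difference of -2.02 points (-3.24 to -0.289). That list held 4784 autosomal hotspots, against 13314 in the wild type. Of the 140 stronger hotspots with CTCF and without MEI4, 25 (17.9%) were in it. Weighted to the same hotspot widths and DMC1 values the difference was -1.60 points (-2.80 to 0.128), and away from gene ends -1.54 points (-3.25 to 1.04), so the interval then includes 0. From the lowest to the highest quartile of wild-type DMC1 value, 2, 2, 5 and 9 of the hotspots at CTCF peaks were found (1.31, 1.30, 3.23 and 5.81%), beside 0.762, 3.03, 4.71 and 10.4% of the comparison group. The interval of the difference includes 0 in each quartile, the last being -4.61 points (-7.77 to 0.453). At gene ends 3 of 243 were found, and elsewhere 15 of 374 (-2.78 points, -5.41 to 0.0322).

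**Figure D5:**
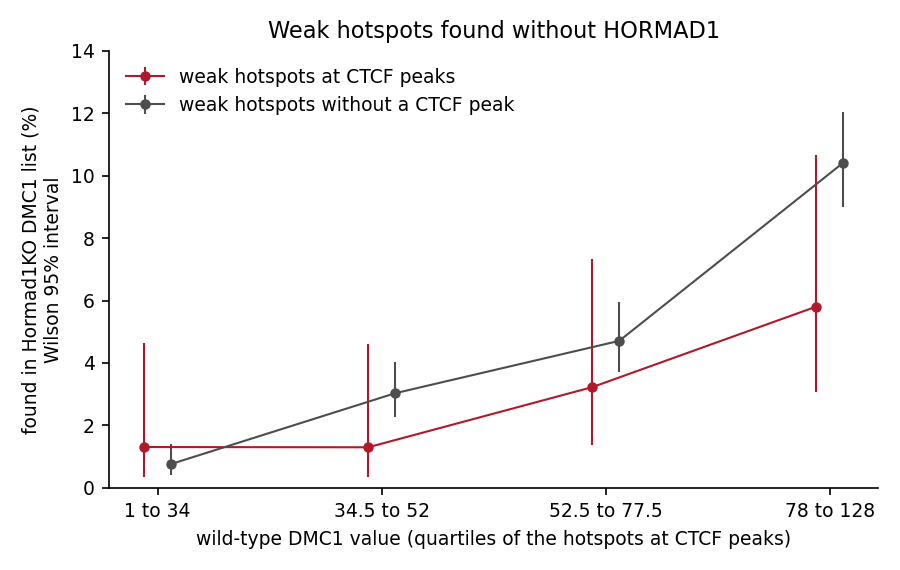
Share of weak hotspots found in the Hormad1KO DMC1 list (y axis, percent) by wild-type DMC1 value (x axis, quartiles of the hotspots at CTCF peaks), for hotspots with (red) and without (grey) a CTCF peak, with Wilson 95% intervals. Both are highest in the class of highest wild-type value, at 5.81% and 10.4%.

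The 18 hotspots that were found had wild-type values between 12.5 and 124 (median 80.75), above the median of 51.5 of those not found, and Hormad1KO values between 12.5 and 68 (median 30). The median of 30 lay above 19.4% of the whole Hormad1KO list, and the 283 found hotspots of the comparison group had a Hormad1KO median of 26.5. Values of the 2 lists were not set against each other, because their scaling is not stated. The 3 highest Hormad1KO values were 68 at chr12:25224747-25226766, with no gene, 58.5 at chr17:28041586-28043597, inside Anks1, and 44 at chr5:110923656-110925863, inside Ttc28. Their wild-type values were 113, 85 and 89.5, and no axis-protein peak of any list lay at these 3. The median CTCF score was 1.67 at the 18 found hotspots and 2.14 at the 599 others.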

How the data were processed

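Peak lists of 24 groups, 1 per group, were used, out of 65 samples in 36 groups. Per the submitters' processing notes, Bowtie2 and MACS2 were used and the build is mm10, with no versions given. For each of the 4 meiotic proteins mapped by antibody here (MEI4, IHO1, HORMAD1, SYCP3), the authors subtracted the corresponding knockout, according to the text of the series. Pooling of replicates and thresholds are not given in the sources used here, and sequencing depth is unknown. The deposited protein lists give positions only. The CTCF list has a deposited score per peak, and the DMC1 lists a deposited signal value per hotspot, in multiples of 0.5. Both are the authors' values and were used to rank and filter within their list.

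Sites overlapped where they shared at least 1 bp. Gene ends and promoters come from NCBI RefSeq, assembly GRCm38.p6, whose chromosome sequences are those of mm10, and symbols were matched by position. Gene ends are both boundaries of a protein-coding gene, its start as well as the other boundary. Shares have Wilson and differences Newcombe 95% intervals (a hybrid score interval, with its paired form for 2 lists over the same hotspots). They cover counting error only, treat hotspots as independent and are not adjusted for the number of comparisons. A difference is called where its interval excludes 0. No p-value was computed, because hotspots are not replicates. Overlap and interval code was tested on simulated data. Python 3.11.15, numpy 2.4.6, pandas 2.3.3 and scipy 1.17.1 were used.

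Members, gene lists and comparisons were chosen with earlier results of these data known. Named sites were, outside chromosome 18, the 6 with the most axis-protein lists (ties by higher CTCF score), the 3 of highest CTCF score with no list, the 3 of highest Hormad1KO DMC1 value and those next to the limit. Promoters were chosen by number of lists, and the 7 stretches with a core were chosen after their sequences were seen. Comparisons of CTCF peaks with knockout lists, their weighting and their split by gene ends were added after the data were examined. PRDM9 lists and lists of other strains were not used here.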

Additional observations from a re-analysis of the deposited data

Results flagged for a closer look

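In 2 of the 16 lists the difference between weak hotspots with and without a CTCF peak was itself different at gene ends and away from them, by an interval of the difference of differences that excludes 0. For HORMAD1 in Mei4KO it was 2.67 points at gene ends and 9.31 points elsewhere, which differ by -6.64 points (-11.2 to -1.74). For SYCP3 in Iho1KO it was -9.70 points at gene ends and 0.127 points elsewhere, which differ by -9.82 points (-16.6 to -2.87). The intervals of the other 14 lists include 0, and with 95% intervals about 1 in 20 lists would be set apart by chance.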

How the results depend on the processing

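Of 38 results, those not named here kept their call and did not change sign under each alternative run, and values are in percentage points. A few differences of IHO1 and SYCP3 from the wild type that were not called became 0: IHO1 Hormad1KO with the stricter overlap and in the 1 kb window, IHO1 Prdm9KO with the upper CTCF peaks and SYCP3 Hormad1KO away from gene ends. "With against without" compares weak hotspots with and without CTCF. Where the shared stretch had to cover 50% or more of the shorter site, with against without was 0.482 for HORMAD1 and 0.181 for SYCP3 in the wild type, -0.0342 for IHO1 Prdm9KO and 0.991 for SYCP3 Prdm9KO, and the changes from the wild type were 2.02 for HORMAD1 Spo11KO and 1.61 for SYCP3 Prdm9KO. In a 1 kb window at the hotspot centre, with against without was 0.149 for IHO1 Prdm9KO and 0.360 for wild-type SYCP3, the change of HORMAD1 Spo11KO was 1.65, and wild-type HORMAD1 at CTCF peaks differed by 0.245 from CTCF peaks at no hotspot. Below 50% of the DMC1 limit, 388 hotspots remained. There, with against without was -0.255 for wild-type IHO1, -0.447 for SYCP3 Prdm9KO and -0.917 for Hormad1KO DMC1, IHO1 differed by -1.43 from stronger hotspots, and wild-type SYCP3 at CTCF peaks by 0.0382. Changes from the wild type there were 1.804 for HORMAD1 Iho1KO, 0.258 for IHO1 Prdm9KO and Hormad1KO, 1.29 for IHO1 Spo11KO and Mei4KO, and -0.258 for SYCP3 Prdm9KO. With the upper 50% of CTCF peaks, 352 hotspots remained, HORMAD1 differed by 1.79 from stronger hotspots and the change of SYCP3 Mei4KO was 1.70.

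Away from gene ends 374 hotspots remained. With against without was -0.0211 for IHO1 Hormad1KO, 0.387 for wild-type SYCP3, 0.134 for SYCP3 Spo11KO, 0.0563 for SYCP3 Mei4KO, 0.127 for SYCP3 Iho1KO and -1.54 for Hormad1KO DMC1. HORMAD1 differed by 1.15 from stronger hotspots and by 0.558 from CTCF peaks at no hotspot. Changes from the wild type were 2.14 for HORMAD1 Iho1KO, 0.267 for IHO1 Prdm9KO, -0.267 for SYCP3 Prdm9KO and Mei4KO, 0 for SYCP3 Spo11KO and 1.07 for SYCP3 Iho1KO. Weighted to width and DMC1 value, with against without was 0.274 for IHO1 Prdm9KO, -0.380, 0.915 and 1.28 for SYCP3 in Prdm9KO, Mei4KO and Iho1KO, and -1.60 for Hormad1KO DMC1. Only at gene ends, an alternative chosen after seeing the data, 243 hotspots remained. With against without was 0.229, 1.57, 2.67 and 1.47 for HORMAD1 in the wild type, Prdm9KO, Mei4KO and Iho1KO. It was -0.201, 0.329 and -0.0915 for IHO1 in Prdm9KO, Spo11KO and Hormad1KO. It was 0.320, -2.53, 2.55, 0.155, -9.70 and 0.741 for SYCP3 in the wild type, Prdm9KO, Spo11KO, Mei4KO, Iho1KO and Hormad1KO, and -0.778 for Hormad1KO DMC1. The changes of HORMAD1 Iho1KO and SYCP3 Prdm9KO were 1.65 and 2.88. Fewer hotspots remain in each setting but the weighting, 496 with the stricter overlap and 546 in the 1 kb window, and the cause of the changes was not tested. Sequencing depth is unknown, so the lower limit of detection of a peak is unknown too. No paired analysis was possible because each protein and genotype has 1 list, so that replicate numbers have no values to pair. The paired intervals of the report are over hotspots, not replicates.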
